A study of Mus musculus with 4 samples.

Results

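The 10 genes described here code for enzymes of glycolysis (Hk1, Pfkfb3, Aldoa, Aldoc, Gapdh, Pgam1, Pkm), for the H and M subunits of lactate dehydrogenase (Ldhb, Ldha) and for a membrane transporter of lactate (Slc16a1). They were taken by name from a table of read counts, 10 of its 31557 gene symbols, and all 10 were present. Their levels were followed in single nestin-GFP-positive cells of the mouse dentate gyrus, across cell classes built without these genes and between a microRNA antagonist and its control. Of 768 wells, the 716 with 500 to 6000 detected genes were kept, and the mouse was the replicate throughout.

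Glycolysis splits glucose into pyruvate in the cytosol and yields ATP without oxygen. Lactate dehydrogenase interconverts pyruvate and lactate, and monocarboxylate transporters such as the product of Slc16a1 (MCT1) move lactate across the membrane together with a proton. In the brain, astrocytes are known for high glycolysis, for glycogen stores and for release of lactate, oligodendrocytes use MCT1 to hand lactate to axons, and capillary endothelium carries glucose and lactate between blood and tissue. Several steps are shared by isozymes from separate genes, among them aldolase A and aldolase C (Aldoa, Aldoc) and the lactate dehydrogenase subunits A and B.

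The cells came from 8 male nestin-GFP mice, in which regulatory sequences of nestin drive GFP, so that radial glia-like (RGL) stem cells and other nestin-expressing cells of the niche are sorted together. At 2 months of age, 4 mice (numbers 2, 4, 6 and 8) received an infusion into the ventricle of a locked nucleic acid antagomir against miR-132 with a cholesterol group, 2 µl of a 0.33 nmol/ml solution. The other 4 mice (numbers 1, 3, 5 and 7) received a scrambled locked nucleic acid oligonucleotide, also in artificial cerebrospinal fluid; the sources used here give no dose for it. Both dentate gyri of each mouse were dissected at 3 months, and the sorted cells were made into Smart-seq2 libraries. Mice 1 to 4 were sorted on one day and mice 5 to 8 on another, and libraries were sequenced in pool L5 (mice 1, 2, 5 and 6) or pool L6 (mice 3, 4, 7 and 8), so that each combination of day and pool held 1 mouse of each treatment. Libraries were primed on poly(A), so mature miR-132 was not measured and its block could not be checked.

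Mature miR-132-3p is shown because its seed, bases 2 to 8 in capitals, is the stretch that pairs with most known kinds of target (RefSeq annotation, GRCm38.p6, chr11:75173723-75173744, plus strand). Of the 10 members, only Aldoa held a match to that seed in its annotated 3' untranslated region, starting at base 80 of 377, and the stretch around it is shown with the match in capitals. The letters searched were GACTGTT and ACTGTTA, on the transcript strand, and they may overlap. Of 21824 genes with an annotated 3' untranslated region, 3883 (17.8%) held at least 1 of these, so 1 of 10 is close to the background, and a match is a description of letters and not a site.
mmu-miR-132-3p: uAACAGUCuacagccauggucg
Aldoa seed match: ccgagacccaaGACTGTTgctggagctgtg

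The median depth of the kept wells was 650777 counts (4118 to 1640970), with 2778.5 genes detected, and the sum over a mouse's 84 to 93 kept wells lay between 4.40e+07 and 6.92e+07 counts. No well name was shared between mice. The classes were 302 oligodendrocyte-like cells (25 to 45 per mouse), 161 astrocyte/RGL-like cells (15 to 32; astrocytes and RGL stem cells, which share most markers), 87 endothelial-like cells (3 to 19), 82 mural-like cells (6 to 14; pericytes and smooth muscle cells) and 25 neuroblast-like cells (1 to 5). A further 42 wells of few detected genes (median 895.5, with 11.03% mitochondrial counts) stayed unnamed, and 12 fibroblast-like and 5 oligodendrocyte precursor-like cells were too few to test. The sort gate sets how many cells of each class were caught, so class sizes are not tissue shares. A nestin count was found in 96.3% of mural-like, 63.2% of endothelial-like and 44% of neuroblast-like cells. It was found in 70.1% to 72.4% of cells in the oligodendrocyte-like clusters. In the main astrocyte/RGL-like cluster the share was 39.7%, and in a smaller one 97.1%. Markers of at least 2 classes, with 10 or more counts for each of 3 markers, were present in 95 of 716 wells, and no doublet caller was run. The classes differ in cells and in RNA per cell, so all levels below are CPM, counts scaled to a total of 1e+06, of the counts summed over a mouse's cells of that class. Fitted log2 differences use their own library scaling and, between classes, a term for the mouse. They can therefore differ widely from the ratio of the printed mean CPM, above all for genes with few or uneven counts.

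Aldoc was the member that differed most between classes: it was abundant in astrocyte/RGL-like cells and at or near 0 in endothelial-like and neuroblast-like cells. Ldhb was likewise high in astrocyte/RGL-like cells, whereas Ldha was highest in endothelial-like cells. Slc16a1 was highest in endothelial-like cells, intermediate in oligodendrocyte-like cells and without a single count in 82 mural-like cells. Aldoa and Gapdh were found in every tested class, with their lowest class means in neuroblast-like and endothelial-like cells respectively. Between the antagomir and the scrambled oligonucleotide no member passed the test in any cell set. All 10 members passed the filter on low counts in every comparison.

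**Figure D1:**
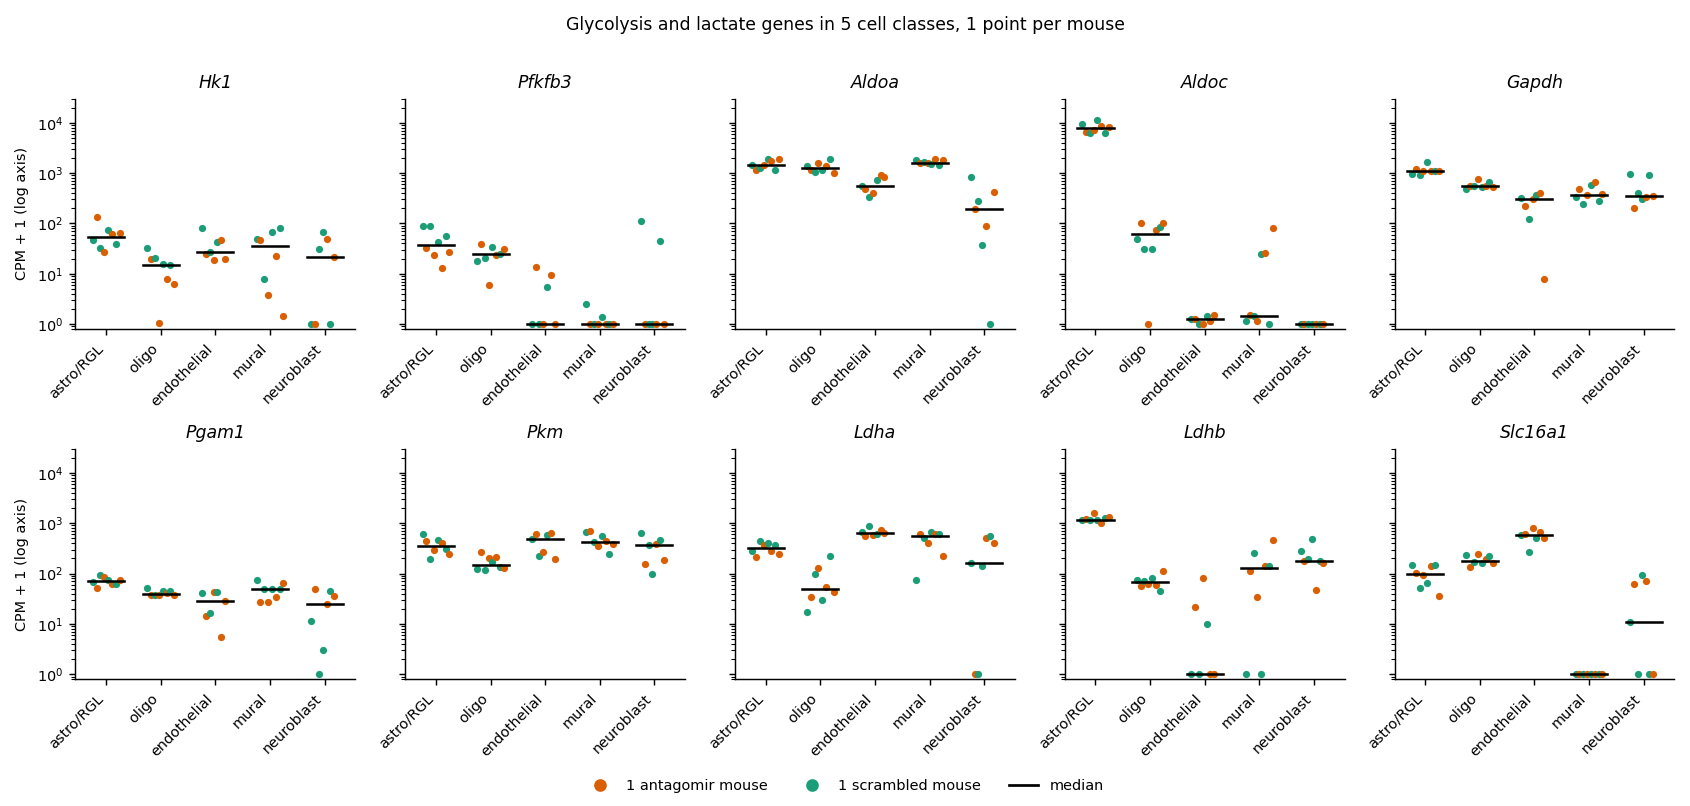
Level of each of the 10 members by cell class, as CPM + 1 on a logarithmic axis, with 1 point per mouse, coloured by treatment, and a bar at the median. Aldoc sits between 6305 and 11507 in astrocyte/RGL-like cells and at or near 0 in endothelial-like and neuroblast-like cells, and Slc16a1 has no counts in mural-like cells.

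Of the members, Hk1 and Pfkfb3 act before the sugar is split. Hk1, which codes for the hexokinase that phosphorylates glucose on entry, ranged from 26.5 to 130 CPM over 8 mice in astrocyte/RGL-like cells (median 53.7, mean 58.7 ± 33.4 SD). In oligodendrocyte-like cells Hk1 ranged from 0.0477 to 31.7 CPM (median 14.2, mean 13.8 ± 9.89 SD, n = 8). It was higher in astrocyte/RGL-like cells in each of the 8 mice, but the difference missed the threshold (log2 2.39, SE 0.91, adjusted p = 0.0765). Pfkfb3 codes for the enzyme that makes fructose 2,6-bisphosphate, the activator of phosphofructokinase. Its level ranged from 11.8 to 87.3 CPM in astrocyte/RGL-like cells (median 36.7, mean 45.5 ± 28.8 SD, n = 8), the widest relative spread of any member in this class, and from 4.91 to 38.4 in oligodendrocyte-like cells (median 23.2, mean 23.6 ± 10.4 SD, n = 8). Mural-like cells held 0 to 1.47 CPM of Pfkfb3 (median 0, mean 0.231 ± 0.52 SD, n = 8), below every mouse of both other classes.

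Aldolase splits fructose 1,6-bisphosphate, and of its genes Aldoc was mostly found in 1 class while Aldoa was spread over all 5. Aldoc ranged from 6305 to 11507 CPM in astrocyte/RGL-like cells (median 7751, mean 8034 ± 1794 SD, n = 8) and from 0 to 102 CPM in oligodendrocyte-like cells (median 60.4, mean 58.8 ± 37.6 SD, n = 8). The ranges lay far apart. Endothelial-like cells held 12 counts of Aldoc in all, a mean of 0.234 CPM (0 to 0.508, median 0.255, n = 7), and the 25 neuroblast-like cells held none. Aldoa ranged from 1460 to 1889 CPM in mural-like cells (median 1610), from 1138 to 1924 in astrocyte/RGL-like cells (median 1424) and from 1023 to 1882 in oligodendrocyte-like cells (median 1259), with n = 8 in each. These 3 ranges overlapped. Endothelial-like cells were below all of them, at 330 to 921 CPM (median 560, mean 612 ± 224 SD, n = 7), and neuroblast-like cells lower still by their median, at 0 to 827 CPM (median 196, n = 7). Set per kb of transcript so that genes can be compared, the mean level in astrocyte/RGL-like cells was 2884 for Aldoc, 991 for Aldoa, 942 for Ldhb and 811 for Gapdh, in CPM per kb. On the same scale the other members lay between 184 for Ldha and 9.82 for Pfkfb3.

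The genes of the later steps were found in all 5 classes. Gapdh, the dehydrogenase that makes 1,3-bisphosphoglycerate, ranged from 905 to 1691 CPM in astrocyte/RGL-like cells (median 1110, n = 8), above the whole range of the oligodendrocyte-like cells at 486 to 779 (median 551, n = 8). It ranged from 244 to 652 CPM in mural-like cells (median 373, n = 8) and from 6.85 to 407 in endothelial-like cells (median 303, n = 7), where 70.1% of cells had a count against 98.8% of astrocyte/RGL-like cells. Pgam1, the phosphoglycerate mutase, averaged 70.6 ± 13.7 CPM in astrocyte/RGL-like cells, 46.4 ± 17.2 in mural-like, 40.7 ± 5.09 in oligodendrocyte-like (SD, n = 8 each) and 26.4 ± 15.6 in endothelial-like cells (n = 7). Pkm, the pyruvate kinase that makes pyruvate, averaged 469 ± 157 CPM in mural-like, 423 ± 192 in endothelial-like, 370 ± 138 in astrocyte/RGL-like and 169 ± 54.4 in oligodendrocyte-like cells (SD, n = 8, 7, 8 and 8). Counts per gene do not separate the M1 and M2 forms of pyruvate kinase, and Gapdh, Aldoa, Pgam1, Ldha and Pkm have processed copies elsewhere in the genome whose reads may have been dropped or shared, since the sources used here do not say how reads with several matches were counted.

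Both lactate dehydrogenase genes had a class pattern of their own. Ldhb, whose subunit is known to favour the use of lactate, ranged from 1007 to 1569 CPM in astrocyte/RGL-like cells (median 1175, mean 1228 ± 172 SD, n = 8). In oligodendrocyte-like cells it ranged from 43.6 to 114 CPM (median 65.6, n = 8), and in endothelial-like cells from 0 to 78.7 (median 0, n = 7), so neither reached the astrocyte/RGL-like range. Ldha, whose subunit is known to favour the making of lactate, ranged from 565 to 886 CPM in endothelial-like cells (median 647, mean 671 ± 114 SD, n = 7), above the 212 to 434 CPM of astrocyte/RGL-like cells (median 325, n = 8). In mural-like cells it ranged from 74.9 to 675 CPM (median 552, n = 8), which overlaps both, and in oligodendrocyte-like cells from 16.5 to 220 (median 47.2, n = 8). Neuroblast-like cells held 251 ± 232 CPM of Ldha and 217 ± 138 of Ldhb (SD, n = 7), with a spread near the means.

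Slc16a1 ranged from 268 to 814 CPM in endothelial-like cells (median 580, mean 563 ± 169 SD, n = 7), from 133 to 238 in oligodendrocyte-like cells (median 179, n = 8) and from 35.1 to 150 in astrocyte/RGL-like cells (median 97.2, n = 8). The endothelial-like range lay above both others, and the latter overlapped only between 133 and 150 CPM. In mural-like cells it had 0 counts in 82 cells, which allows a share of cells with a count of up to 3.66%. Mouse 7 had only 3 endothelial-like cells, in which Slc16a1 stood at 1842 CPM, and was left out of the endothelial-like values per mouse and of the tests. Pooled levels and counts of cells given for a class cover all its cells, those of mouse 7 included.

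Promoters are shown as the bases before a RefSeq start that lie outside annotated exons. They are printed for Aldoc and Ldhb, with their highest class mean in astrocyte/RGL-like cells, and for Ldha and Slc16a1, highest in endothelial-like cells. Hk1, Pfkfb3, Gapdh and Pgam1 also had their highest class mean in astrocyte/RGL-like cells and are not printed. The build is GRCm38.p6, and the windows are chr11:78322823-78322967 (plus strand), chr6:142507958-142508207 (minus strand), chr7:46846832-46847081 (plus strand) and chr3:104638414-104638663 (plus strand). Capitals mark ACGTG on either strand, a form of the core letters of hypoxia-response elements, which overlaps with the E-box CACGTG. Other forms of that core were not searched, so a sequence without capitals may hold them.
Aldoc: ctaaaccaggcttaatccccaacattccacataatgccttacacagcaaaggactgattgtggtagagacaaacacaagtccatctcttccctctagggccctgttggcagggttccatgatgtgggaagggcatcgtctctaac
Ldhb: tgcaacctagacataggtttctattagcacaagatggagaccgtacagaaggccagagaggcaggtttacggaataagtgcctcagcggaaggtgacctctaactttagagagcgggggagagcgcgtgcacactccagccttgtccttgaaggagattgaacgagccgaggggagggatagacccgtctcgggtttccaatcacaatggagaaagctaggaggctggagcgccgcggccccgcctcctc
Ldha: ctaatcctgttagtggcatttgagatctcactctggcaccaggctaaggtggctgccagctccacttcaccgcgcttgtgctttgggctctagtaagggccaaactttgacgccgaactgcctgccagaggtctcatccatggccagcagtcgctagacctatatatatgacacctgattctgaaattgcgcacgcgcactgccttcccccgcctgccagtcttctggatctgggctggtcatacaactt
Slc16a1: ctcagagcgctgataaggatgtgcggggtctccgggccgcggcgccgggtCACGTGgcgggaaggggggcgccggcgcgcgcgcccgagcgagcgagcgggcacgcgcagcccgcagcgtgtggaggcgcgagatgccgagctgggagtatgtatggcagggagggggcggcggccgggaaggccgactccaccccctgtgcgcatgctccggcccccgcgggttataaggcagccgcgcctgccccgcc

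In windows of 250 bases, taken for each member at the RefSeq start nearest its principal transcript, ACGTG was present for 4 of the 10 members (Pfkfb3, Aldoa, Pgam1 and Slc16a1). It was present in 5444 of 32851 promoters (16.6%), a background that counts every window. Other starts of Hk1, Pfkfb3, Aldoa, Aldoc, Pkm and Ldha were not searched. CACGTG was present for 2 of the 10 (Pfkfb3 and Slc16a1) and in 1978 promoters (6.02%). Of the printed promoters only that of Slc16a1 held either. Pfkfb3 and Pgam1, which hold ACGTG, had their highest class mean in astrocyte/RGL-like cells, so the printed promoters do not contrast the classes. Its full window of 250 bases was 76.4% G and C, against 55.2% for Aldoc, 56.4% for Ldhb and 54.4% for Ldha. The full window of Aldoc runs past its 145 printed bases. The genes lie at chr10:62268855-62379908 (Hk1), chr2:11471433-11554077 (Pfkfb3), chr7:126795234-126800751 (Aldoa), chr11:78322968-78327781 (Aldoc), chr6:125161715-125166467 (Gapdh), chr19:41911923-41918660 (Pgam1), chr9:59656368-59679375 (Pkm), chr7:46841475-46855627 (Ldha), chr6:142490249-142507957 (Ldhb) and chr3:104638668-104658462 (Slc16a1) of GRCm38, in the GENCODE annotation.

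In astrocyte/RGL-like against oligodendrocyte-like cells, 3 members were higher, 1 was lower and 6 missed the threshold, an adjusted p of 0.05 in edgeR's quasi-likelihood test with the mouse as a block and Benjamini-Hochberg adjustment over 12458 genes. Of all genes tested, 10.5% were called higher and 6.24% lower, and the median log2 difference was 0.93 over the members and 0.08 over all genes. Aldoc was higher by log2 7.45 (SE 1.26, adjusted p = 9.00e-05), Ldha by 2.20 (SE 0.45, adjusted p = 0.000778) and Ldhb by 3.91 (SE 1.33, adjusted p = 0.0415), each in 8 of 8 mice. Slc16a1 was lower by log2 -1.24 (SE 0.40, adjusted p = 0.0383), also in 8 of 8 mice. Pkm (log2 0.90, adjusted p = 0.0527), Gapdh (0.78, adjusted p = 0.273), Pgam1 (0.61, adjusted p = 0.670) and Hk1 were higher in astrocyte/RGL-like cells of all 8 mice without passing the test. Aldoa differed by log2 -0.02 (95% interval -0.53 to 0.48), a sign that turned in 8 of 20 alternative settings. The calls for Ldhb and Slc16a1 lay near the threshold and were kept in 11 and 8 of 20 alternative settings. With 1 mouse left out the differences ranged over log2 3.81 to 3.98 and -1.34 to -1.095. DESeq2 called both (adjusted p = 0.0036 and 0.0093), as did limma on mean log2(CPM + 1) (adjusted p = 1.81e-12 and 2.81e-06). So did edgeR with this pair of classes fitted alone (adjusted p = 3.8e-07 and 0.00247). Without any 1 of mice 2 to 8 the call for Ldhb was lost, at an adjusted p of up to 0.0938, and the call for Slc16a1 was lost without any 1 of mice 1 to 6 and 8, at an adjusted p of up to 0.113, and with median-of-ratios scaling (adjusted p = 0.0775). Within pool L5 and pool L6 the Aldoc difference was 6.85 and 8.15 (adjusted p = 0.00640 and 0.0342), the Ldha difference 3.06 and 1.59 (adjusted p = 0.0126 and 0.190), the Ldhb difference 3.76 and 4.04 (adjusted p = 0.390 and 0.167), and the Slc16a1 difference -0.93 and -1.55 (adjusted p = 0.446 and 0.441).

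Markers of RGL or astrocyte cells summed to 127 to 288 CPM in oligodendrocyte-like sums, with 19 of 20 present, Id4 at 0 and Slc1a3 highest at a mean of 63.3 CPM, against 27179 to 32517 in astrocyte/RGL-like sums. Oligodendrocyte markers summed to 163 to 1274 CPM in astrocyte/RGL-like sums, with 14 of 14 present. The part of these in the low Aldoc and Ldhb counts of oligodendrocyte-like cells was not tested. Among the 91 tested genes of the other metabolic lists, 13 were higher and 6 lower in astrocyte/RGL-like cells, with 4 higher and 0 lower of 14 other glycolytic enzymes. Of the phosphofructokinase genes, Pfkm (390 against 1.33 CPM, log2 9.19, adjusted p = 0.00426) and Pfkp (338 against 4.99, log2 6.10, adjusted p = 0.0236) were higher, while Pfkl (130.5 against 39.2 CPM, log2 1.65, adjusted p = 0.328) missed the threshold. Of 14 glycogen genes 4 were higher and 0 lower, among them Pgm2 (208 against 13.2 CPM, log2 5.10, adjusted p = 0.0264) and the glycogen phosphorylase gene Pygm, at 45.4 CPM with no count in oligodendrocyte-like cells. Bsg, which codes for the chaperone that brings MCT1 to the membrane, was higher (608 against 257 CPM, log2 1.07, adjusted p = 0.00126), while Slc16a7 (MCT2) was lower (2.21 against 26.8 CPM, log2 -8.42, adjusted p = 0.0314). Taldo1, transaldolase of the pentose phosphate pathway, was also lower (196 against 1726 CPM, log2 -3.27, adjusted p = 0.000344), as was Psat1 of serine synthesis (361 against 1401 CPM, log2 -2.15, adjusted p = 0.00347).

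In endothelial-like against astrocyte/RGL-like cells, 1 member was higher, 5 were lower and 4 missed the threshold. Of all 12458 genes 5.64% were higher and 19.2% lower, and the median log2 difference was -1.57 over the members and -1.31 over all genes, so the lower calls are to be read against a comparison in which genes were lower in general. Slc16a1 was higher by log2 2.55 (SE 0.44, adjusted p = 0.000221) in 7 of 7 mice. Aldoc was lower by log2 -15.90 (SE 1.79, adjusted p = 2.81e-07), Ldhb by -7.55 (SE 1.77, adjusted p = 0.00217), Gapdh by -2.51 (SE 0.47, adjusted p = 0.000259), Aldoa by -1.44 (SE 0.27, adjusted p = 0.000213) and Pgam1 by -1.70 (SE 0.62, adjusted p = 0.0451), each in 7 of 7 mice. Aldoa and Pgam1 thus lay close to the median of all genes, and the Pgam1 call was lost without any 1 of mice 1 to 7, at an adjusted p of up to 0.127. Ldha was higher in 7 of 7 mice but missed the threshold (log2 1.12, SE 0.44, adjusted p = 0.0651), and Pfkfb3 was lower in 7 of 7 mice and missed it too (log2 -4.72, SE 1.79, adjusted p = 0.0555). Pkm differed by log2 -0.04 (95% interval -0.73 to 0.65). In pool L5 and pool L6 taken alone, Slc16a1 differed by 2.29 and 2.43 (adjusted p = 0.0241 and 0.142) and Ldhb by -8.14 and -7.46 (adjusted p = 0.0543 and 0.0649), whereas Aldoa, Aldoc and Gapdh were called in each.

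**Figure D2:**
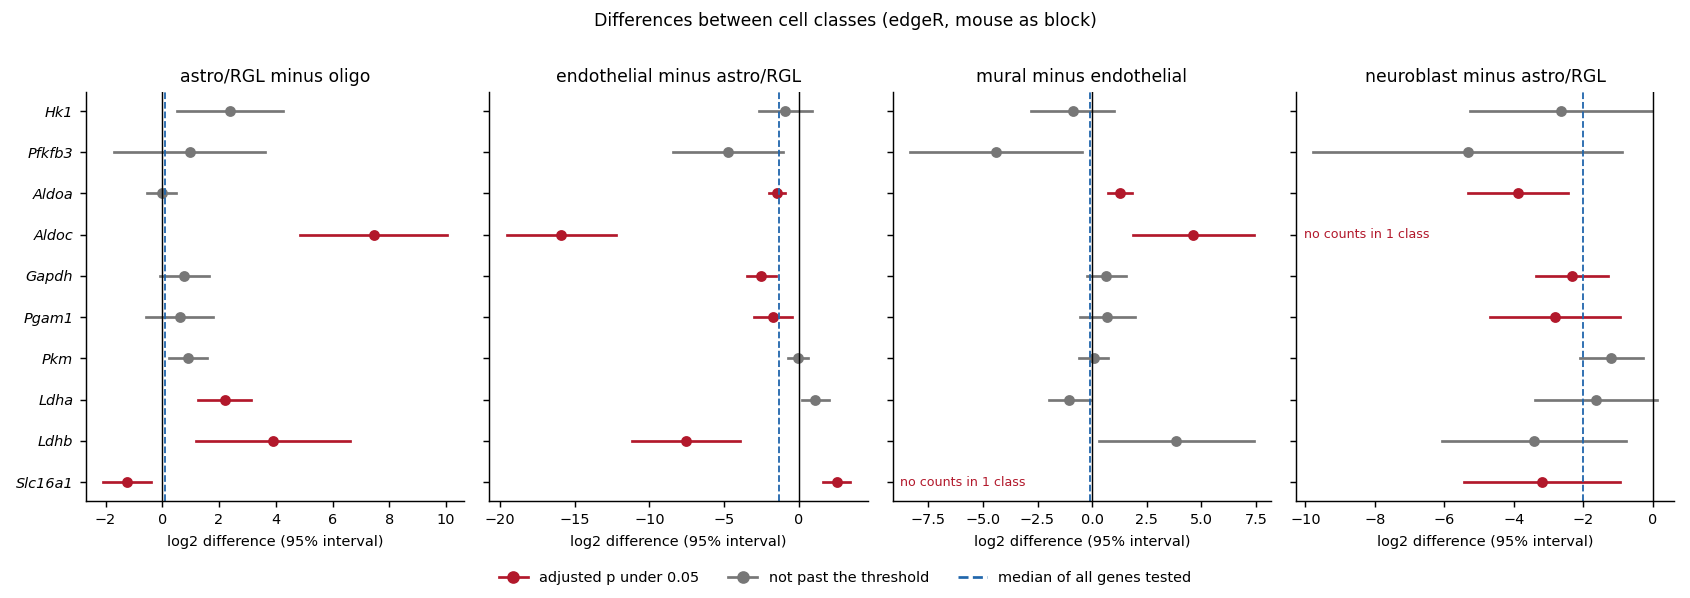
Fitted log2 difference of each member in 4 class comparisons, with 95% intervals; red points passed an adjusted p of 0.05, grey ones did not, and the dashed line is the median of all genes tested. Slc16a1 is higher in endothelial-like than in astrocyte/RGL-like cells at log2 2.55, while Aldoc lies at -15.90, and members with no counts in 1 class are marked in words in place of a point.

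Genes of the dissociation and immediate early list summed to 6826 to 25878 CPM in endothelial-like sums (median 15084) and to 386 to 6307 CPM in astrocyte/RGL-like sums (median 1728), and 12 of 17 were called higher in endothelial-like cells. RGL or astrocyte markers summed to 1548 to 5343 CPM in endothelial-like sums, with 16 of 20 present, Hopx, Id4, Slc6a11 and Tnc at 0 and S1pr1, a receptor gene also known in endothelium, highest at a mean of 2851 CPM. The part of both lists in the member values was not tested. Of the 91 tested genes of the other metabolic lists, 4 were higher and 31 lower, including 0 higher and 4 lower of 14 other glycolytic enzymes and 0 higher and 8 lower of 14 glycogen genes. Slc2a1, the glucose transporter of the blood-brain barrier, was higher (5569 against 296 CPM, log2 4.05, adjusted p = 0.00416), as were Bsg (16472 against 608 CPM, log2 4.68, adjusted p = 5.02e-12) and Epas1, which codes for the oxygen-regulated factor HIF-2α (1536 against 101 CPM, log2 3.88, adjusted p = 3.72e-06). Of the lists these belong to, 1 of 5 tested glucose transporters was higher and 3 were lower, and 2 of 17 hypoxia and glycolysis control genes were higher and 6 lower. The lower ones include the glucose transporter genes Slc2a8 (11.2 against 113.5 CPM, log2 -9.75, adjusted p = 0.00529) and Slc2a10 (0.0361 against 69.5 CPM, log2 -10.72, adjusted p = 0.00394) and the coactivator gene Ppargc1a (0.699 against 144 CPM, log2 -11.75, adjusted p = 5.85e-06). Lower were the enolase gene Eno1 (343 against 884 CPM, log2 -1.50, adjusted p = 0.0106) and the triosephosphate isomerase gene Tpi1 (232 against 615 CPM, log2 -1.52, adjusted p = 0.0397), both close to the median of all genes. Phgdh, the first enzyme of serine synthesis from a glycolytic intermediate, was also lower (3.75 against 694 CPM, log2 -11.4, adjusted p = 0.000316). The glycogen synthase gene Gys1 and its regulator Ppp1r3c had no counts in endothelial-like cells and stood at 42.7 and 199 CPM in astrocyte/RGL-like cells.

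In mural-like against endothelial-like cells, 2 members were higher, 1 was lower and 7 missed the threshold, beside 5.22% of all genes higher and 5.66% lower. The median log2 difference was 0.36 over the members and -0.08 over all genes. Slc16a1 was lower, at 614 CPM in the pooled endothelial-like cells and no count in mural-like cells. A floor of 3 counts over the 82 mural-like cells would be 0.0695 CPM, or 8841-fold lower. That floor treats reads as independent draws and gives no lower bound on the fold, since endothelial-like cells with a count held a median of 424. Slc16a1 was called in each pool alone as well. Aldoa was higher by log2 1.27 (SE 0.26, adjusted p = 0.00155) in 7 of 7 mice. Aldoc was higher by log2 4.63 (SE 1.35, adjusted p = 0.0239) in 6 of 7 mice at levels of 16.1 and 0.234 CPM, and only 3 of 82 mural-like cells held 10 or more counts of it. Without mouse 5, 6 or 8 that call was lost, at an adjusted p of up to 0.125. In pool L5 and pool L6 taken alone, Aldoa differed by 1.19 and 1.65 (adjusted p = 0.0556 and 0.112) and Aldoc by 4.69 and 5.65 (adjusted p = 0.0588 and 0.303). Ldhb (142.6 ± 154 against 15.4 ± 28.9 CPM, SD, log2 3.86, adjusted p = 0.169) and Ldha (log2 -1.04, adjusted p = 0.157) differed by less than the test could call. Endothelial markers summed to 35.4 to 919 CPM in mural-like sums, with 11 of 12 present and Cdh5 at 0, and mural markers to 190 to 2672 CPM in endothelial-like sums, with 11 of 12 present and Tagln at 0, and their part in these values was not tested. Of 91 other metabolic genes 7 were higher and 4 lower. Slc2a1 was lower in mural-like cells (44.4 against 5569 CPM, log2 -7.67, adjusted p = 5.49e-05), as were Bsg (371 against 16472 CPM, log2 -5.81, adjusted p = 1.68e-13) and Gpd2, the mitochondrial glycerol phosphate dehydrogenase (1.51 against 282 CPM, log2 -9.14, adjusted p = 2.51e-05). Slc2a4, the insulin-responsive glucose transporter, had 74.2 CPM in mural-like cells and no count in endothelial-like cells.

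In neuroblast-like against astrocyte/RGL-like cells, no member was higher, 5 were lower and 5 missed the threshold, over the 7 mice with at least 2 neuroblast-like cells. Beside them 1.08% of 12595 genes were higher and 20.8% lower, and the median log2 difference was -3.004 over the members and -2.01 over all genes. Aldoc had 0 counts in 25 neuroblast-like cells, which allows a share of cells with a count of up to 12%. A floor of 3 counts would put it 36317-fold below the 7931 CPM of the pooled astrocyte/RGL-like cells. That floor treats reads as independent draws and gives no lower bound on the fold, since astrocyte/RGL-like cells with a count held a median of 4279. Aldoa (log2 -3.88, SE 0.70, adjusted p = 0.000157), Pgam1 (-2.82, SE 0.92, adjusted p = 0.0258) and Gapdh (-2.32, SE 0.51, adjusted p = 0.00112) were lower in 7 of 7 mice, and Slc16a1 (-3.19, SE 1.09, adjusted p = 0.0356) in 6 of 7. Gapdh and Pgam1 lay within 1 log2 unit of the median of all genes. With median-of-ratios scaling the calls for Pgam1 and Slc16a1 were lost, and so they were without any 1 of mice 1, 3 and 5 for Pgam1 and of mice 1, 2, 3, 4, 7 and 8 for Slc16a1, at adjusted p-values of up to 0.0772 and 0.110. In pool L5 and pool L6 taken alone, Aldoa differed by -3.81 and -3.97 (adjusted p = 0.00396 and 0.0862), Gapdh by -2.52 and -1.99 (adjusted p = 0.0179 and 0.193), Pgam1 by -2.52 and -3.06 (adjusted p = 0.252 and 0.398) and Slc16a1 by -1.93 and -12.78 (adjusted p = 0.172 and 0.00450), whereas Aldoc was called in each. Ldhb (log2 -3.41, adjusted p = 0.0562) and Pkm (-1.19, adjusted p = 0.0524) missed the threshold. Astrocyte/RGL markers summed to 243 to 979 CPM in neuroblast-like sums, with 13 of 20 present, and 8 of 17 dissociation and immediate early genes were also lower there; their part was not tested. Of 93 other metabolic genes 0 were higher and 32 lower, among them Gpi1 (61.9 against 431 CPM, log2 -4.75, adjusted p = 0.00314), Eno1 (188 against 884 CPM, log2 -3.49, adjusted p = 1.36e-05) and Slc2a1 (11.6 against 296 CPM, log2 -8.83, adjusted p = 0.000696).

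The remaining pairs of classes set the order of levels. Endothelial-like against oligodendrocyte-like cells had Ldha (log2 3.33, adjusted p = 1.18e-05) and Slc16a1 (1.31, adjusted p = 0.0254) higher and Aldoa (-1.46), Aldoc (-8.45) and Gapdh (-1.73) lower. Of all genes 24.9% were called, 8.04% higher and 16.9% lower. The median log2 difference of all genes was -1.17, and Aldoa and Gapdh lay near it. Mural-like against astrocyte/RGL-like cells had Pfkfb3, Aldoc, Gapdh and Slc16a1 lower, beside 23.8% of all genes called. Mural-like against oligodendrocyte-like cells had Pkm (log2 0.93, adjusted p = 0.0332) and Ldha (2.29, adjusted p = 0.000437) higher and Pfkfb3, Aldoc and Slc16a1 lower. Of all genes 26% were called, 7.48% higher and 18.5% lower, with a median log2 difference of -1.23. Over the 4 classes other than neuroblast-like cells, the order for Slc16a1 was thus endothelial-like, oligodendrocyte-like, astrocyte/RGL-like and mural-like, and each neighbouring pair differed by the test. Of Ldha, endothelial-like, mural-like and astrocyte/RGL-like cells did not differ from their neighbours by the test, and all 3 were above oligodendrocyte-like cells. Of Aldoa, mural-like, astrocyte/RGL-like and oligodendrocyte-like cells did not differ by the test, and endothelial-like cells were below each. Against astrocyte/RGL-like and oligodendrocyte-like cells that difference was near the median of all genes. Of Pkm, only the mural-like against oligodendrocyte-like difference passed.

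The balance of isozymes within a sum does not depend on how libraries are scaled. The Ldhb share, Ldhb counts per kb of the Ldha and Ldhb total per kb, was 77.9% to 88.5% over 8 mice in astrocyte/RGL-like cells (median 83.7%, mean 83.6% ± 3.83 SD) and 21.1% to 85.7% in oligodendrocyte-like cells (median 64.7%, mean 60.3% ± 22.3 SD). It was 23.3 percentage points higher in astrocyte/RGL-like cells, in 7 of 8 mice (exact two-sided sign-flip test, p = 0.0234, adjusted p = 0.0469 over 8 comparisons). That call was lost with wells thinned to 200000 counts (20.3 points, adjusted p = 0.0625) and with the share averaged over cells (15.8 points, adjusted p = 0.075). The difference was 10.2 ± 12.6 points in pool L5, where the oligodendrocyte-like share was 60.3% to 85.7%, and 36.3 ± 22.3 in pool L6, where it was 21.1% to 78.5% (SD, n = 4 each). In endothelial-like cells it was 0% to 15.5% (median 0%, mean 3.17% ± 5.72 SD, n = 7), which is -80.6 points relative to astrocyte/RGL-like cells in 7 of 7 mice (exact p = 0.0156, the smallest 7 mice allow, adjusted p = 0.0417), with -82.1 points in pool L5 and -78.7 in pool L6. Mural-like cells ranged from 0% to 73.5% (median 21.7%), and their difference from endothelial-like cells was within the spread between mice (exact p = 0.125, adjusted p = 0.167). The Aldoc share of the aldolase total was 69.7% to 78.4% in astrocyte/RGL-like cells (median 74.2%, mean 74.3% ± 2.68 SD, n = 8) and averaged 2.46% ± 1.70 in oligodendrocyte-like cells (SD, n = 8). That difference of 71.9 points held in 8 of 8 mice (exact p = 0.00781, the smallest 8 mice allow, adjusted p = 0.0417) and was 73.2 points in pool L5 and 70.5 in pool L6. In endothelial-like cells the Aldoc share averaged 0.0184% ± 0.0145 (SD, n = 7; exact p = 0.0156 and adjusted p = 0.0417 against astrocyte/RGL-like cells). In the 6 mice with aldolase counts in neuroblast-like cells it was 0% in each (exact p = 0.0313, the smallest 6 mice allow, adjusted p = 0.05, which does not pass).

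**Figure D3:**
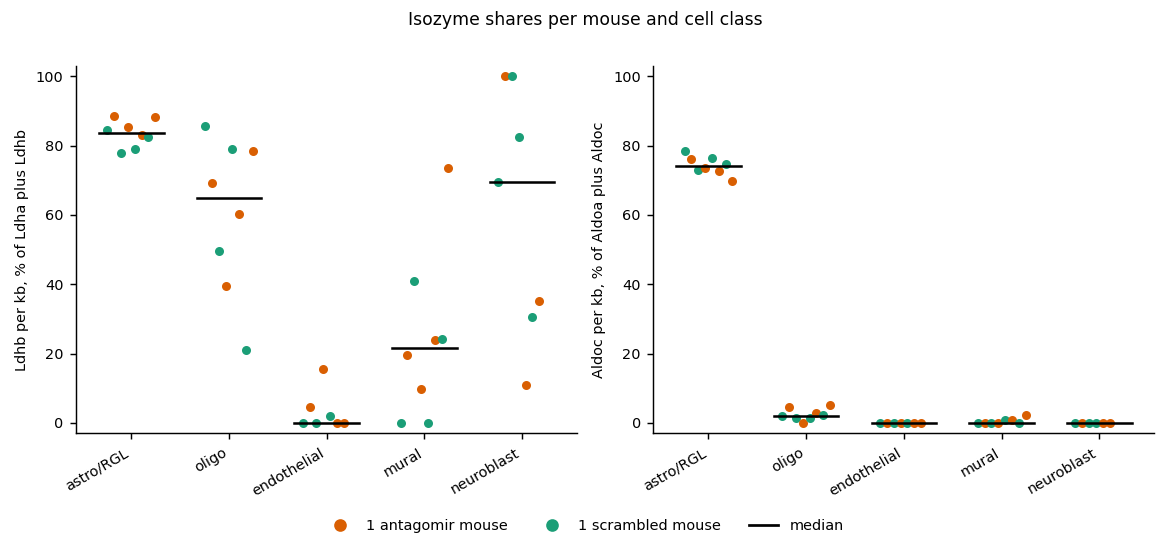
Ldhb share of lactate dehydrogenase counts per kb and Aldoc share of aldolase counts per kb, in percent, by cell class, with 1 point per mouse, coloured by treatment, and a bar at the median. astrocyte/RGL-like cells lie between 77.9% and 88.5% for Ldhb and between 69.7% and 78.4% for Aldoc, while endothelial-like cells lie at or below 15.5% and near 0%.

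Counts in single cells showed how far these levels reached. Aldoc had a count in 153 of 161 astrocyte/RGL-like cells (95.03%, 95% Wilson interval 90.5% to 97.5%), in 67 of 302 oligodendrocyte-like cells (22.2%, 17.9% to 27.2%) and in 11 of 87 endothelial-like cells (12.6%). Of those oligodendrocyte-like cells 48 held 10 or more counts, whereas none of the endothelial-like cells did. Median depths were 606189, 829784 and 565180 counts per well, and these intervals treat cells as independent draws and leave out the spread between mice. Ldhb had a count in 143 of 161 astrocyte/RGL-like cells (88.8%), 86 of 302 oligodendrocyte-like cells (28.5%), 18 of 82 mural-like cells (22.0%) and 4 of 87 endothelial-like cells (4.598%). Ldha had a count in 64 of 87 endothelial-like cells (73.6%), 90 of 161 astrocyte/RGL-like cells (55.9%) and 54 of 302 oligodendrocyte-like cells (17.9%). Both subunits were found in the same cell in 82 of 161 astrocyte/RGL-like cells, with 61 holding only Ldhb and 8 only Ldha, while 60 of 87 endothelial-like cells held only Ldha and 4 held both. Slc16a1 had a count in 184 of 302 oligodendrocyte-like cells (60.9%) and 52 of 87 endothelial-like cells (59.8%), so its higher level in the latter went with a like share of cells, and in 52 of 161 astrocyte/RGL-like cells (32.3%).

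**Figure D4:**
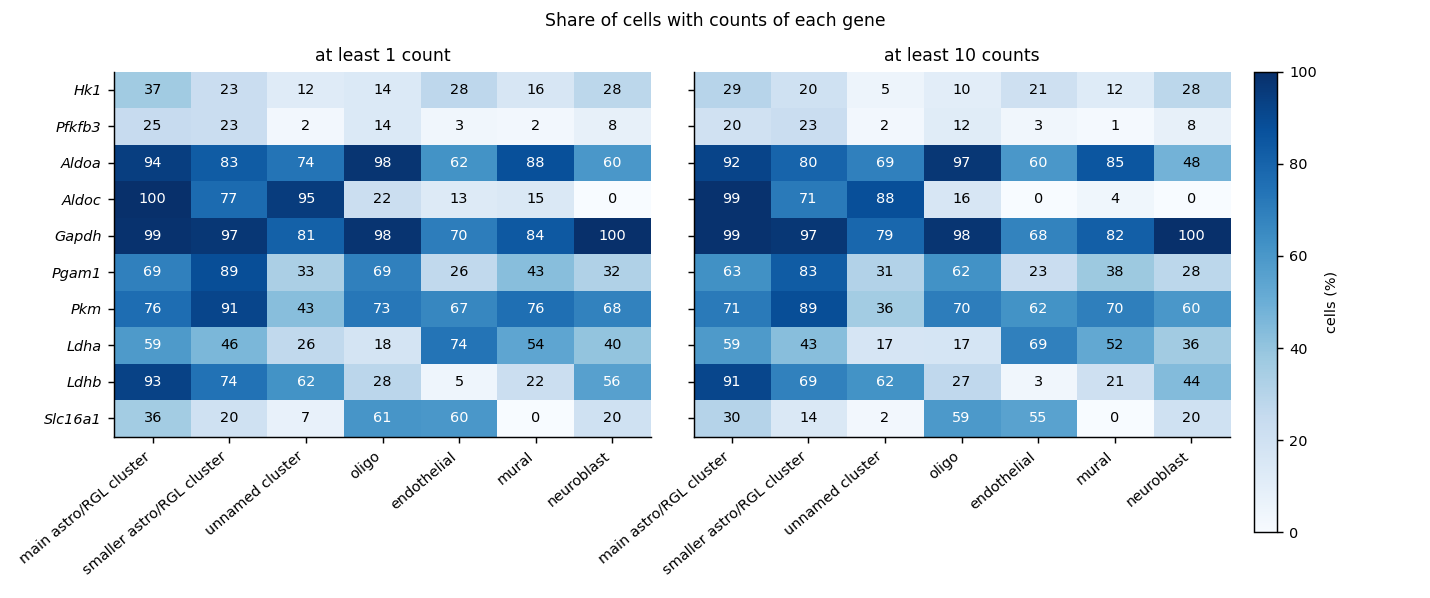
Percentage of cells with at least 1 count (left) and at least 10 counts (right) of each member, rows, in the clusters and classes, columns, with darker blue for a higher percentage. Aldoc stands at 22.2% of oligodendrocyte-like cells with a count and 15.9% with 10, and Slc16a1 at 59.8% of endothelial-like cells and 0 of 82 mural-like cells.

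The astrocyte/RGL-like class held a main cluster of 126 cells and a smaller one of 35, in which 97.1% of cells had a nestin count and Ccnd2, Hmgb2 and Tnc were among the leading genes. No member passed the test between them, beside 1.11% of 12637 genes called higher and 2.79% called lower in the smaller cluster, and the median log2 difference was -1.57 over the members and -0.70 over all genes. Ldhb stood at 354 against 1479 CPM (log2 -2.62, adjusted p = 0.203), Gapdh at 781 against 1277 (-1.30, adjusted p = 0.0798) and Aldoc at 4427 against 9142 (-1.71, adjusted p = 0.458), each lower in the smaller cluster in 8 of 8 mice. Pkm was the reverse at 587 against 298 CPM, higher in 8 of 8 mice. Its fitted difference was smaller than these means imply (log2 0.34, adjusted p = 0.805). DESeq2 called Aldoa, Gapdh and Ldhb lower, with adjusted p-values from 0.00801 to 0.0412. It also called several times as many of all genes as edgeR did here, so edgeR's shares above are not the background of these calls. Sums with at least 2 cells of the smaller cluster were used, and they held 2 to 7 cells per mouse. Aldoc stood there at 0.407 CPM in mouse 2, with 4 cells, and at 2066 to 8850 CPM in the other mice.

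Between the antagomir and the scrambled oligonucleotide, no member was called in all kept cells, in oligodendrocyte-like cells or in astrocyte/RGL-like cells, and neither was any other gene (0% of 15447, 10778 and 11280 genes in edgeR's quasi-likelihood test, with 280, 214 and 158 genes at an unadjusted p under 0.05). DESeq2 called 10, 13 and 8 genes and no member. The median log2 difference over the members was -0.06, -0.04 and -0.14, against 0.004, -0.01 and -0.004 over all genes. Aldoa, the member with the seed match, differed by log2 -0.06 in all kept cells (95% interval -0.53 to 0.41), -0.11 in oligodendrocyte-like cells (-0.58 to 0.37) and 0.10 in astrocyte/RGL-like cells (-0.44 to 0.65). Aldoa in astrocyte/RGL-like cells averaged 1554 ± 345 CPM in antagomir and 1441 ± 332 in scrambled mice (SD, n = 4 each). Aldoc averaged 7651 ± 815 and 8417 ± 2541 CPM, and Ldhb 1281 ± 237 and 1175 ± 74.8, with groups that overlapped.

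Pfkfb3 in astrocyte/RGL-like cells was the only member whose groups did not overlap, where 2.22% of the 11280 genes did not. It stood at 31.3, 23.0, 11.8 and 26.6 CPM in antagomir mice 2, 4, 6 and 8 and at 87.3, 87.2, 42.1 and 54.8 CPM in scrambled mice 1, 3, 5 and 7. The highest antagomir mouse thus lay below the lowest scrambled mouse. The means were 23.2 ± 8.31 and 67.9 ± 23.0 CPM (SD, n = 4 each), a log2 difference of -1.54 (SE 0.60, 95% interval -2.86 to -0.22) which did not pass edgeR's quasi-likelihood test (unadjusted p = 0.0262, adjusted p = 1.00). The difference was -1.65 in pool L5 and -1.46 in pool L6. Only 39 of the 161 astrocyte/RGL-like cells held a Pfkfb3 count, so the value of each mouse rests on few cells. In the main cluster alone, 126 of these 161 cells, the groups were narrowly apart, at 2.80 to 39.5 CPM in antagomir and 41.8 to 102 in scrambled mice. These are largely the same cells, and the share of all genes apart in that cluster was not computed. In the smaller cluster they overlapped, at 0 to 124 and 0 to 138 CPM. In oligodendrocyte-like cells Pfkfb3 differed by log2 0.02 (95% interval -1.36 to 1.402), where no member's groups were apart beside 2.19% of all genes, and likewise in all kept cells beside 1.95%. The difference of Pfkfb3 between both classes' responses was log2 -1.35 (SE 1.03, adjusted p = 1.00 in edgeR's quasi-likelihood test), and no member and 0% of 13585 genes were called in that test, with 287 genes at an unadjusted p under 0.05 and 210 genes, no member among them, called by DESeq2. Pkm in oligodendrocyte-like cells averaged 202 ± 58.6 CPM in antagomir and 135 ± 21.3 in scrambled mice (SD, n = 4 each), log2 0.56 (SE 0.26, adjusted p = 1.00 in edgeR's quasi-likelihood test), and the groups overlapped.

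**Figure D5:**
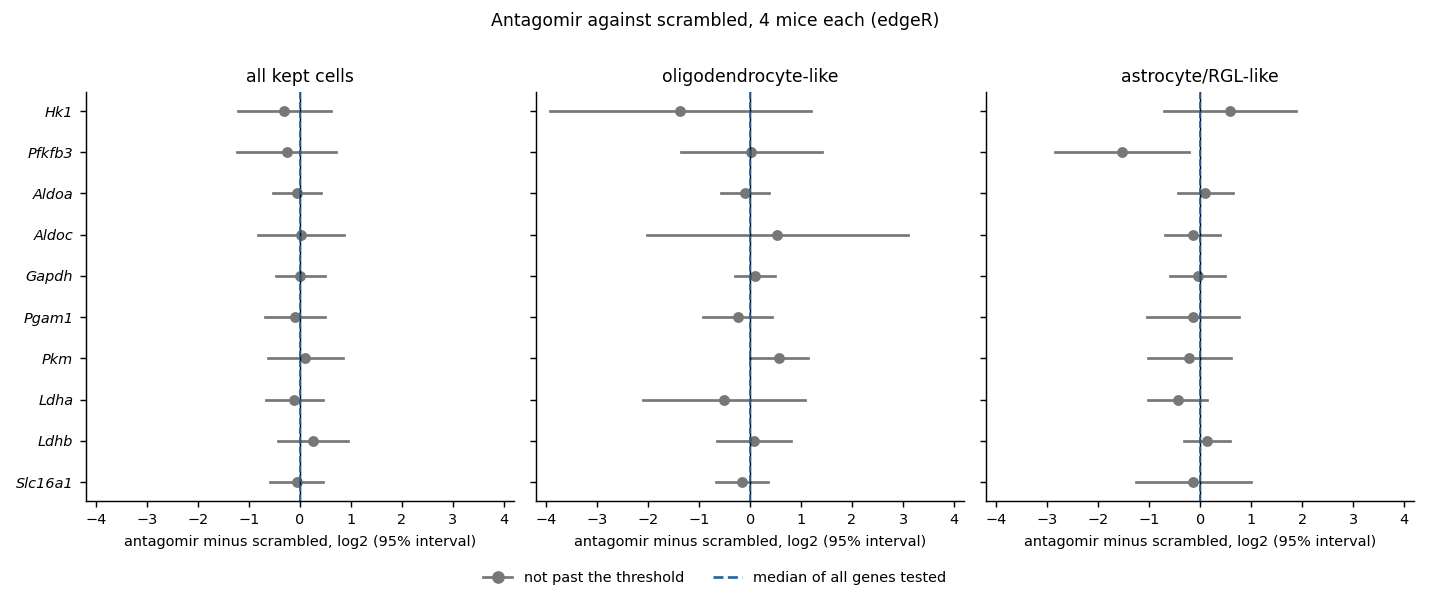
Log2 difference of each member, antagomir against scrambled, with 95% intervals, in all kept cells, oligodendrocyte-like cells and astrocyte/RGL-like cells of 4 and 4 mice; the dashed line is the median of all genes tested. Pfkfb3 in astrocyte/RGL-like cells lies at -1.54 with an interval from -2.86 to -0.22, and no member passed an adjusted p of 0.05.

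The Ldhb share in astrocyte/RGL-like cells was 86.3% ± 2.60 in antagomir and 81.0% ± 2.98 in scrambled mice (SD, n = 4 each), a difference of 5.30 points that did not pass (exact two-sided permutation test, p = 0.0571, adjusted p = 0.343 over 6 comparisons), with 4.05 points in pool L5 and 6.55 in pool L6, and the other 5 share differences had adjusted p-values of 0.343 or above. Of the other metabolic genes none was called between treatments. By p, Gpd2 led in astrocyte/RGL-like cells, at 187 CPM in antagomir and 73.0 in scrambled mice (log2 1.36, unadjusted p = 0.00961, adjusted p = 1.00 in edgeR's quasi-likelihood test). G6pdx, the first enzyme of the pentose phosphate pathway, stood at 45.5 and 105 CPM (log2 -1.21, adjusted p = 1.00), and Pfkp at 431 and 244 (log2 0.84, adjusted p = 1.00). The same ranking named 3 genes of the dissociation and immediate early list in these cells: Nr4a1 at 72.7 and 6.52 CPM (log2 3.45), Jun at 165 and 509 (log2 -1.66) and Dusp1 at 126 and 395 (log2 -1.69), each with an adjusted p of 1.00. Of that list 11 genes were tested there, 3 with a higher level in antagomir mice and none called, with a median log2 difference of -1.10 against -0.004 over all genes. Its summed level was 386 to 3434 CPM in antagomir and 400.2 to 6307 in scrambled mice, and its part in the Pfkfb3 difference in the same cells was not tested. In oligodendrocyte-like cells the leading genes were Prkaa2, Adpgk and Ugp2, lower in the antagomir mice, and Ppp1r3c, Phkb and Pgd, higher, none past the threshold, and in all kept cells Vhl, Ppp1r3c and Gys1 (higher) and Gapdhs, Pgk1 and G6pdx (lower).

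The sequencing pools differed in oligodendrocyte-like cells, with mitochondrial counts of 1.06% to 1.37% in pool L5 and 3.53% to 4.205% in pool L6. Genes of the dissociation and immediate early list summed to 3286 to 6343 CPM there in pool L5 and to 415 to 2449 in pool L6, with no overlap. Ldha stood at 16.5, 32.9, 28.8 and 52.2 CPM in the mice of pool L5 and at 97.5, 126, 220 and 42.2 in those of pool L6, so the pools overlapped in 1 mouse. The difference was log2 1.88 (SE 0.55, adjusted p = 0.258 in edgeR's quasi-likelihood test and 0.00128 in DESeq2), beside 0.111% of 10778 genes called by edgeR and 9.51% by DESeq2. In the pooled cells of both oligodendrocyte-like clusters of 134 cells Ldha was also higher in pool L6. It stood at 34.7 and 112 CPM in pools L5 and L6 for the cluster that is 32.8% pool L6. For the cluster that is 82.8% pool L6 it stood at 8.52 CPM, with a count in 1 of 23 cells, and at 134 CPM. The smaller oligodendrocyte-like cluster went the other way, at 34.0 CPM in 31 cells of pool L5 and 0 in 3 cells of pool L6. These cluster values pool cells over mice and were not tested. No other member differed between pools by either tool. The part of the mitochondrial share and of the dissociation genes in the Ldha difference was not tested. Each pool holds 2 mice of each treatment.

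The genes whose log2(CPM + 1) followed each member most closely over the 31 sums of a mouse and a class were named by a fixed rule, as a description of sums that share libraries and classes. Aldoc was followed by Dab1 (Pearson's r = 0.941), Scg3 (0.938) and Mlc1 (0.936), and Slc16a1 by Tmem98 (0.947), Gpd2 (0.925) and Mpzl1 (0.918). Pfkfb3 was followed by Clmn (0.907), Cyp2j9 (0.907) and Megf10 (0.906), Ldha by Ccdc141 (0.865), Crip2 (0.851) and Clic1 (0.850), and Ldhb by Tspan7 (0.824), Scg3 (0.783) and Acss2 (0.772). Hk1 had no gene closer than Smpdl3a (0.680), the weakest lead among the 10 members.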

How the data were processed

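The authors deposited whole read counts per gene symbol and well, with a table of each well's mouse, treatment, sort day and pool. Per the submitters' processing notes, reads were handled with STAR 2.5.2, featureCounts 1.5.1 of Subread, FastQC and Seurat 2.3.1, on build mm10; the sources used here give no annotation release or strand setting. Smart-seq2 counts are reads, not molecules. The labels' 2 samples per treatment could not be tied to mice, so mouse and treatment were read from the table of wells. In the treatment and pool tests p-values measure the spread between mice. With the mouse as a block, those of the class fits and the interaction measure the spread left once each mouse's own level is removed.

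Kept wells were clustered without the members and the other metabolic genes (scanpy 1.11.5, leidenalg 0.10.2; 2000 variable genes, 20 components, 15 neighbours, resolution 1) and named from listed markers. The rule that left a cluster with under 50% of the median detected genes unnamed was set after seeing the data. Counts were summed per mouse and class (at least 5 cells) and tested with edgeR 4.0.16 in R 4.3.3 (quasi-likelihood, TMM, filterByExpr, mouse as a block between classes), with DESeq2 1.42.0 and limma 3.58.1 as alternatives, at an adjusted p of 0.05. Only 1 mouse had 5 neuroblast-like cells, so that comparison used at least 2. Levels per kb used the principal transcript length of GENCODE M21, and sequences came from RefSeq tables.

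The members and the gene lists were chosen with earlier results of these data known. In each class comparison, up to 2 other genes per list and direction were eligible for naming, by log2 difference among those past the threshold and averaging at least 20 CPM in 1 class, and the text gives some of these; between treatments the 3 genes in each direction with the smallest p were named. Tested on simulated data, the class fit recovered 1% of 4-fold and 22% of 16-fold changes among 12458 genes (astrocyte/RGL-like against oligodendrocyte-like). The treatment fit recovered 47%, 43% and 3% of 4-fold changes in all kept, oligodendrocyte-like and astrocyte/RGL-like cells, among 15447, 10778 and 11280 genes. Each simulation changed 100 genes per fold size, all above 20 CPM, and left the other genes equal between the compared groups. The real class comparison called 1309 genes higher and 777 lower, so its threshold on the unadjusted p was looser. The simulated shares are thus not the power of that comparison. The lists were other glycolytic enzymes, glucose transporters, other lactate genes, pyruvate entry to mitochondria, the pentose phosphate pathway, glycogen, serine and glycerol phosphate branches, the malate-aspartate shuttle, hypoxia and glycolysis control, and dissociation and immediate early genes, with 128 of 130 genes in the table.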

Additional observations from a re-analysis of the deposited data

Results flagged for a closer look

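Of 120 groups of 4 to 8 mice tested, 13 held a highest or lowest mouse whose gap to the nearest other, over the group's range, passed Dixon's 95% critical value, where chance flags about 5% of groups. Among class levels, Hk1 in astrocyte/RGL-like cells reached 130 CPM in mouse 2, where the other 7 mice lay between 26.5 and 73.9. Gapdh in the same class reached 1691 CPM in mouse 5. Ldhb in endothelial-like cells reached 78.7 CPM in mouse 4, where the Ldhb share was 15.5%. In mural-like cells Pfkfb3 reached 1.47 CPM in mouse 1 and Aldoc 79.4 CPM in mouse 8, with an Aldoc share of 2.32%. Pfkfb3 in neuroblast-like cells reached 113 CPM in mouse 1.

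Among treatment groups of 4 mice, antagomir mouse 4 stood apart in Ldhb over all kept cells (710 CPM) and in Gapdh of oligodendrocyte-like cells (779 CPM), antagomir mouse 8 in Ldhb of oligodendrocyte-like cells (114 CPM), antagomir mouse 2 in Gapdh of astrocyte/RGL-like cells (1207 CPM) and scrambled mouse 7 in Ldhb of astrocyte/RGL-like cells (1286 CPM).

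Wells outside the limits on detected genes also held counts of the members, with over 3 counts for 6 of 10 in the 36 wells under 500 genes and for 10 of 10 in the 16 wells over 6000 genes. Aldoc stood at 6956 CPM in the pooled wells under the lower limit, 5638 CPM in the 43 wells just above it, 258 CPM in the 9 wells just below the upper limit and 1843 CPM in the 16 wells over it.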

How the results depend on the processing

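No result changed direction where either value passed the threshold, over 20 settings per class comparison (19 for Pfkfb3 and Aldoc in mural-like against endothelial-like cells), 13 for the smaller cluster, 18 or 19 per treatment comparison, 10 for the interaction and 11 for the pools; uncalled members did turn sign, Aldoa between astrocyte/RGL-like and oligodendrocyte-like cells in 8 of 20. Median-of-ratios scaling moved the median log2 difference of all genes from 0.08 to 0.26, from -1.31 to -1.44, from -0.08 to 0.05 and from -2.01 to -1.74 in the order of the 4 class comparisons. Over all results and settings, 31 counts or shares and 71 single-gene values lost their call, and 50 single-gene values gained it; Aldoc, Aldoa and Gapdh between endothelial-like and astrocyte/RGL-like cells kept theirs in all 20.

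Members called in astrocyte/RGL-like against oligodendrocyte-like cells fell from 4 to 2 in pool L5 alone and 1 in pool L6 alone, and all genes from 2086 to 730 and 439, against 4522 with limma on mean log2(CPM + 1). In endothelial-like against astrocyte/RGL-like cells pool L6 gave 3 of the 6 members, and all genes went from 3091 to 1361 (L5), 656 (L6), 5191 (DESeq2) and 5681 (limma). In mural-like against endothelial-like cells the 3 members became 1 in either pool, 5 with DESeq2 and 7 with limma, and all genes went from 1355 to 505 (L5), 318 (L6), 637 (this pair fitted alone, with fewer genes tested) and 3551 (DESeq2). In neuroblast-like against astrocyte/RGL-like cells the 5 members became 3 (L5), 2 (L6), 3 (median-of-ratios), 8 (wells thinned to 200000 counts) and 9 (DESeq2), and all genes went from 2762 to 824 (L5), 353 (L6) and 4648 (DESeq2). For the smaller cluster, members went from 0 to 3 with DESeq2 and 1 with the pair fitted alone, and all genes from 492 to 26 (L5), 19 (L6), 163 (pair alone) and 2131 (DESeq2). DESeq2 called 10, 13 and 8 genes between treatments, 210 in the interaction and, between pools, 1 member and 1025 genes, where edgeR called 12 genes, 88 without covariates and 57 with thinned wells. The Ldhb share difference between astrocyte/RGL-like and oligodendrocyte-like cells was 20.3 points with thinned wells and 15.8 as a mean over cells, neither past the threshold. Pools alone hold 4 mice each, and the cause of the other changes was not tested.

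Leaving out 1 mouse gave 2 to 3 members called in astrocyte/RGL-like against oligodendrocyte-like cells, 0 to 1 members and 244 to 470 genes for the smaller cluster, 0 to 1 genes in the interaction and 1 to 5 genes between pools. The share differences ranged over 17.8 to 26.8 points (Ldhb) and 71.2 to 72.9 (Aldoc) for astrocyte/RGL-like against oligodendrocyte-like cells, and over -82.4 to -79.3 (Ldhb) and -75.0 to -73.6 (Aldoc) for endothelial-like against astrocyte/RGL-like cells; with 1 mouse fewer the smallest p the test allows is higher.

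The combination of sort day and pool holds 1 mouse of each treatment, and with it as a replicate block the treatment tests called 0 members and 0 genes in each cell set. Deviations of such pairs correlated by -0.000163 to 0.222 over 12 comparisons, with 3 over 0.1, so the numbers do not pair the mice. Without the mouse as a replicate block, the class fits called 4, 6, 4, 6 and 0 members, and 1943, 2961, 2256, 2594 and 740 genes.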

Other observations

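Classes and clusters that entered no test also held the members. In the unnamed cluster of 42 wells with few detected genes, Aldoc had counts in 40 wells, and the pooled levels were 12612 CPM of Aldoc, 2335 of Aldoa, 1610 of Ldhb, 1358 of Gapdh and 12.1 of Slc16a1. In the 5 oligodendrocyte precursor-like cells Aldoc had counts in 5 of 5 (pooled 769 CPM) and Ldhb stood at 493 CPM, while Slc16a1 and Pfkfb3 had no counts. In the 12 fibroblast-like cells Aldoc had no counts, Ldha stood at 384 CPM and Ldhb at 325 CPM.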
